A study of Mus musculus with 16 samples.

Results

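The nuclear-encoded genes of the mitochondrial respiratory chain were read in haematopoietic stem cells (HSCs) from bone marrow (BM) by RNA-seq. A gene was taken as a member when it was protein-coding and its GENCODE mouse symbol began with Nduf followed by a, b, c, s or v, with Uqcr, with Cox and a digit from 4 to 8, or with Atp5, and Cyc1 was added. This gave 90 of the 46078 genes in the count table. By role, they comprised 7 catalytic core subunits, 29 accessory subunits and 8 assembly factors of complex I, 9 genes of complex III, 18 of complex IV, and 16 subunits of complex V. The pattern also took Ndufa4 and Ndufa4l2, which carry complex I names but have since been placed in complex IV, and Atp5s, which carries a complex V name but is not counted as a structural subunit.

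The respiratory chain passes electrons from NADH and succinate to oxygen and pumps protons across the inner mitochondrial membrane, and ATP synthase lets these protons back to make ATP. Complex I oxidises NADH, complex III hands electrons from ubiquinol to cytochrome c, complex IV reduces oxygen, and complex V is the ATP synthase. Most of their subunits are made from nuclear genes, and the remainder, which lie in the membrane core, are encoded in mitochondrial DNA. Quiescent HSCs are known for relying largely on glycolysis and for engaging oxidative phosphorylation more as they enter the cell cycle.

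Each library was made from a pool of 30 cells sorted as lin- Sca-1+ c-Kit+ (LSK) CD48- CD150+. The cells came either from the endosteal BM, released by crushing bones after flushing, or from the central BM that was flushed out. The mice were WT or Gfra2-/-, with C57/Bl6 given as the strain, matched for age and sex, untreated, and of an age that the sources used here do not state. Gfra2-/- mice lack the GFRα2 receptor in all tissues and have a deficit of cholinergic nerve fibres, and the sorted cells carry the deletion as well as their surroundings. There were 4 libraries each from WT endosteal, WT central and Gfra2-/- endosteal BM and 3 from Gfra2-/- central BM, lettered A to D here in table order. The study calls the libraries of a group biological replicates, but the sources used here do not say whether each came from a different animal, so p-values measure the spread between these libraries, part of which may be technical.

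The deleted gene was checked first. Gfra2 had 0, 0, 0 and 1 counts in WT endosteal libraries A to D, 0, 0, 4 and 0 in WT central, 2, 47, 1 and 9 in Gfra2-/- endosteal, and 0, 1 and 0 in Gfra2-/- central libraries. WT libraries thus had at most 4 counts of Gfra2, so its counts cannot tell the genotypes apart. Gfra2-/- endosteal libraries B and D held the most counts of a gene that is deleted by their label, and the cause was not tested. The term "libraries labelled Gfra2-/-" is meant wherever the genotype is named below. Reads on genes numbered 826487 to 3367289 in the WT central libraries and 4416648 to 18550008 in the others, and 1 library of each group had under 0.5% of its reads on spike-in RNAs. WT central library C, with 1431546 uniquely mapped reads, did not reach the study's quality cut-off of 1500000 and was kept here. On the counts-per-million (CPM) scale, the 10 HSC markers summed to between 1799 and 3616 in every library. Summed myeloid markers ran from 538 to 2613 CPM in WT central and from 476 to 1627 CPM in the other libraries, and in WT central BM Mpo, Elane and Ctsg were at 0, Prtn3 stood at 136 to 219 CPM and Lyz2 at 311 to 2431 CPM, S100a8 and S100a9 reached 862 and 794 CPM in library D (at most 4.65 and 4.01 in the others), and Ms4a3 was read in library A alone, at 30.7 CPM. Lymphoid and erythroid markers reached 1241 and 681 CPM in Gfra2-/- endosteal BM, where Cd3e, Cd3d, Cd8a and Dntt were at 0. The 6 muscle markers stayed at or below 3.71 CPM. The part of these cell types in the values below was not tested. Depth was varied only by refits on counts thinned to the smallest library, and its part beyond this was not tested.

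All values below are CPM on library sizes scaled by the trimmed mean of M-values (TMM), and they are therefore relative to the other genes of the same library. Levels of different genes are compared only after division by the length of the principal transcript (CPM per kb).

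Respiratory chain genes were abundant in these HSCs. Their median level was 95.9 CPM per kb, whereas that of the 15655 protein-coding genes with at least 1 read was 6.56 CPM per kb. Of the 90 members, 79 had reads in every library. In complex I the highest were Ndufa2, at 433 CPM per kb, Ndufb9, at 386, and the iron-sulphur subunit Ndufs7, at 287, while Ndufb4 was lowest at 7.51. In complex III the hinge subunit Uqcrh reached 468 CPM per kb, Uqcr10 252 and Uqcr11 225, and Uqcrq was lowest at 61.1.

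The regulatory subunit Cox4i1 was the top member of complex IV and of the whole set, at 857 CPM per kb ± 172 (SD, n = 15). Cox8a followed at 532 and Cox6b1 at 384, and Cox7c was lowest among the complex IV genes read in every library, at 42.4 CPM per kb. In complex V, Atp5e, the epsilon subunit of the F1 stalk, was level with Cox4i1 at 856 CPM per kb but with a much larger spread (SD 717, n = 15). The catalytic beta subunit Atp5b came next at 510 CPM per kb and Atp5mpl, a small membrane subunit, at 395. The c ring that turns in the membrane is encoded by 3 genes for an identical mature protein, and here Atp5g3 stood at 329 CPM per kb, against 3.28 for Atp5g1 and 3.24 for Atp5g2.

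**Figure D1:**
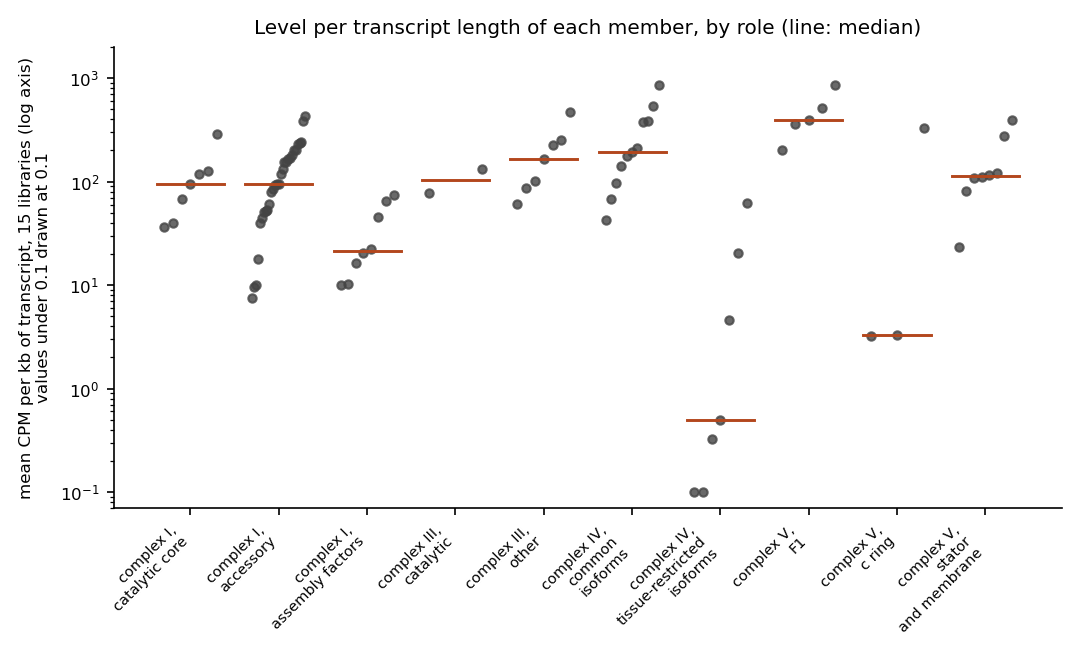
Level per transcript length of the members by role (CPM per kb, log axis), each point the mean of 1 member over 15 libraries and each line the median of a role. Ndufa4, Ndufa4l2 and Atp5s are not drawn, values under 0.1 are drawn at 0.1, and the tissue-restricted isoforms of complex IV lie far below the common ones, with medians of 0.49 and 193 CPM per kb.

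These levels depend on which transcript was read. For 24 members another coding transcript has under 50% of the length of the one used: for Atp5g1 the principal transcript has 4715 nt and the shortest coding one 596 nt, which would raise its level to 25.9 CPM per kb. Near-identical copies matter as well, because reads that fit 2 places were not assigned. Of the 90 members, 54 share no 50-base window with any gene elsewhere in the genome. In contrast, 8 share over 30% of theirs, led by Atp5g2 with 87.4%, Atp5l with 68.5% and Cox7c with 53.0%, and the counts of these 8 are uncertain. Genes that overlap a member at its own place were left out of this search. Their exons cover 48.6% of the principal transcript of Atp5o, 41.7% of Cox5a, 39.0% of Ndufb6 and 20.0% of Ndufb5. Counts of such members are uncertain as well, because counting was unstranded, and the size of this effect was not tested.

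Complex IV subunits come in common forms and in forms restricted to muscle, testis or lung. Cox8b, Cox8c and Ndufa4l2 had no read in any library, which allows up to 0.0222 CPM over all libraries together. Cox6a2, of heart and skeletal muscle, had 26 counts in Gfra2-/- central library C and none elsewhere. Cox7b2 had 5 and 39 counts in Gfra2-/- central libraries A and B alone.

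Cox7a1, the muscle form of subunit 7a, had 71 counts in WT endosteal library A, 11 and 17 in WT central libraries B and D, 12 in Gfra2-/- central library A and none in the others. Reads of Cox6a2 were thus in 1 library, those of Cox7b2 in 2 and those of Cox7a1 in 4. Cox6b2, by contrast, was read in every library, at 62.7 CPM per kb ± 33.0, and Cox4i2, the hypoxia-linked form of subunit 4, in 13 of 15, at 20.3 CPM per kb ± 26.1 (SD, n = 15). Their common counterparts Cox6b1 and Cox4i1 stood at 384 and 857 CPM per kb.

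WT endosteal against WT central HSCs asked whether the place of origin goes with a different level of these genes. No member of 83 tested passed a false discovery rate (FDR) of 10% in edgeR, nor did any gene (0% of genes called). At an unadjusted p under 0.05, 7 members were higher in endosteal HSCs (8.43% of members, with 4.43% of all genes) and 4 were lower (4.82%, with 3.46% of all genes), and DESeq2 called Atp5c1 and Ndufs3 higher and Ndufa2 lower, 2 and 1 members (2.14% of genes called). The numbers higher and lower at that p were 2 and 10 with offsets for transcript length, 6 and 9 with DESeq2, 4 and 0 with spike-in factors, 4 and 9 without WT endosteal library A, 7 and 7 without WT central library D, and 5 or 6 and 1 or 2 without WT endosteal libraries B, C or D or WT central library C. The median log2 fold change of the members was 0.00 and that of all tested genes 0.03.

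Values were also summarised by role, with no test of a difference between roles. All 7 catalytic core subunits of complex I had positive values, with a median log2 fold change of 0.52, whereas 19 of 29 accessory subunits had negative ones, with a median of -0.42. Both catalytic subunits of complex III were on the positive side (median 1.57), and 8 of 11 common complex IV isoforms on the negative one (median -0.20). With spike-in size factors in place of TMM, the median of all genes became 1.58 and only 1 of 83 members kept a negative value, so these signs hold relative to other genes only.

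Atp5c1, the gamma subunit that rotates inside the F1 head, had the smallest p. It stood at 402, 329, 326 and 234 CPM in WT endosteal libraries A to D and at 123, 91.2, 42.8 and 74.3 CPM in WT central ones, so that the groups did not overlap. Its log2 fold change was 1.94 ± 0.39 (SE), with an edgeR adjusted p of 0.225 and an exact two-sided permutation p of 0.0286, the smallest that 4 against 4 libraries allow.

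Ndufs3, a core subunit in the peripheral arm of complex I, was nearly missing from WT central libraries. It had 3, 5, 0 and 35 counts there and 313, 1183, 433 and 708 counts in WT endosteal ones, or 0 to 11.8 against 39.2 to 78.6 CPM. The log2 fold change was 3.84 ± 1.05 (SE; edgeR adjusted p = 0.418), and Ndufs3 is among the genes with shared sequence, with 35.8% of its windows found elsewhere. Atp5b differed less, with a log2 fold change of 0.85 ± 0.27 and an edgeR adjusted p of 0.465.

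Cyc1, the haem subunit of complex III, gave 398, 128, 122 and 93.8 CPM in WT endosteal libraries and 95.7, 11.2, 46.8 and 10.1 CPM in WT central ones. Its ranges overlapped through 1 central library, and the WT central values rest on 106, 36, 35 and 30 counts. On the lower side, Ndufa2, an accessory subunit of the NADH-oxidising arm, stood at 131 to 282 CPM in endosteal and 359 to 911 CPM in central WT HSCs, without overlap (log2 -1.52 ± 0.38, edgeR adjusted p = 0.343). Atp5mpl and Atp5e had log2 fold changes of -0.90 and -1.04, with edgeR adjusted p of 0.578 and 0.586.

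In Gfra2-/- HSCs, endosteal and central libraries were compared in the same way. No member of 84 tested and no gene passed the FDR in edgeR (0% of genes called), DESeq2 called no member (1.22% of genes called), and 1 member had an unadjusted p under 0.05 (1.19% of members, with 4.79% of all genes in either direction). This was Atp5b, at 1153 to 1531 CPM in endosteal and 824 to 1007 CPM in central libraries (log2 0.44 ± 0.19, edgeR adjusted p = 0.999). The median log2 fold change was -0.12 for the members and 0.03 for all genes.

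Next in each direction came Uqcrc1, a core protein of complex III, at 0.62, Ndufb2 at 1.07, Uqcrh at -0.55, Ndufb7 at -0.73 and Ndufc1 at -0.87 on the log2 scale. None of these passed an unadjusted p of 0.05. Ndufs3 ran from 35.1 to 53.1 CPM in endosteal and from 29.3 to 74.9 CPM in central libraries of this genotype, ranges that overlap. Atp5c1 likewise overlapped, at 247 to 336 and 130 to 310 CPM.

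Whether the compartment difference itself differed between genotypes was tested by the interaction term. No member of 85 and no gene passed the FDR in edgeR (0% of genes called), and DESeq2 called 1 member, Ndufs3 (1.18% of genes called). At an unadjusted p under 0.05, 3 members had a smaller endosteal excess in Gfra2-/- than in WT HSCs (3.53% of members, with 6.97% of all genes in either direction). These were Ndufs3, with a log2 interaction of -3.96 ± 1.12, Atp5c1, with -1.52 ± 0.49, and Cyc1, with -2.45 ± 0.90 (SE), at edgeR adjusted p of 0.523, 0.540 and 0.583. The largest positive interactions by p were Ndufa2 at 1.20, Ndufb2 at 1.59 and Cox7c at 1.82.

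Over both genotypes together, endosteal against central HSCs gave no member called by edgeR out of 85 (0.0259% of genes called), while DESeq2 called Atp5c1 and Atp5b higher and Ndufa2 lower (2.64% of genes called). At an unadjusted p under 0.05, 5 members were higher (5.88%, with 4.94% of all genes) and 6 lower (7.06%, with 3.77% of all genes). Atp5c1 had a log2 fold change of 1.24 ± 0.31, Atp5b of 0.67 ± 0.17 and Uqcrc1 of 1.02 ± 0.38, while Ndufa2 stood at -0.96 ± 0.33, Ndufa6 at -0.67 ± 0.26 and Atp5mpl at -0.57 ± 0.24. The edgeR adjusted p was 0.208 for both Atp5c1 and Atp5b and above that for the other 4.

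Gfra2-/- against WT HSCs asked whether the loss of the receptor goes with a different level of these genes, and this comparison alone gave members past the FDR in edgeR. With compartment as a covariate, 7 members fell in Gfra2-/- HSCs at a 10% FDR in edgeR and none rose, which is 8.24% of the 85 tested members (0.804% of genes called, 0.525% of genes called lower). They were Atp5e, Atp5mpl, Cox6a1, Ndufa2, Ndufb7, Ndufb5 and Cox6b1. At an unadjusted p under 0.05, 29 members were lower (34.1%, with 5.38% of all genes) and 2 higher (2.35%, with 6.54% of all genes), and DESeq2 called 20 lower and 0 higher (6.75% of genes called).

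In all, 70 of the 85 members (82.4%) had negative values, as did 45.4% of all tested genes, and the median log2 fold change was -0.45 for the members and 0.11 for all genes. With spike-in size factors, all genes shifted to a median of 0.74, the members to 0.09, only 37 of 85 members remained negative and no member was called, so the members are lower relative to other genes, and a fall per spike-in RNA was not shown. The members' median minus that of all genes was -0.56 with TMM and -0.65 with spike-in factors. In pools of sorted cells, fewer cells of a type and less RNA per cell cannot be told apart.

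The calls depended on single libraries and on Gfra2-/- endosteal libraries B and D, the 2 with the most Gfra2 counts. Without those 2 libraries no member passed the FDR, 22 were lower at an unadjusted p under 0.05, and the members' median was -0.38, with 0.12 for all genes. Leaving out each library in turn gave between 0 calls, without Gfra2-/- central library A, and 10 calls, without WT endosteal library C.

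Atp5e, the smallest subunit of the F1 sector, had the smallest p. It was at 712, 254, 193 and 271 CPM in WT endosteal libraries A to D and at 892, 491, 1055 and 469 CPM in WT central ones. In Gfra2-/- HSCs it was at 156, 143, 158 and 97.3 CPM in endosteal and 120, 170 and 227 CPM in central libraries. Only the highest Gfra2-/- library exceeded the lowest WT library, and both endosteal and central groups were apart from each other by genotype; the log2 fold change was -1.69 ± 0.31 (SE) with an edgeR adjusted p of 0.0247.

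Atp5mpl, a short protein of the membrane sector, gave 352, 174, 209 and 215 CPM in WT endosteal and 491, 357, 632 and 271 CPM in WT central libraries. The Gfra2-/- values were 152, 112, 127 and 106 CPM in endosteal and 111, 172 and 148 CPM in central libraries. All 7 Gfra2-/- libraries thus lay below all 8 WT libraries (log2 -1.24 ± 0.25, edgeR adjusted p = 0.0426). Cox6b1, which faces cytochrome c on complex IV, and Atp5k, a subunit linked to ATP synthase dimers, were the other members without overlap, making 3 of 85 (3.53%, with 0.182% of all genes).

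Cox6b1 stood at 442, 260, 236 and 246 CPM in WT endosteal and 315, 300, 337 and 239 CPM in WT central HSCs, against 184, 206, 129 and 155 and 156, 191 and 167 CPM in the Gfra2-/- groups. The gap was narrow, 236 against 206 CPM, and the log2 fold change was -0.81 ± 0.20 (edgeR adjusted p = 0.0981). Cox6a1, the common form of subunit 6a, ranged from 166 to 426 CPM in WT and from 67.1 to 178 CPM in Gfra2-/- libraries (log2 -1.29 ± 0.27, edgeR adjusted p = 0.0519).

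Among the complex I accessory subunits, Ndufa2 ranged from 131 to 911 CPM in WT and from 44.7 to 181 CPM in Gfra2-/- libraries (log2 -1.48 ± 0.34, edgeR adjusted p = 0.0723). Ndufb7, of the membrane arm, ranged from 82.1 to 305 CPM and from 48.7 to 179 CPM (log2 -1.18 ± 0.29, edgeR adjusted p = 0.0981). Ndufb5, also of the membrane arm, ranged from 124 to 490 CPM and from 62.1 to 141 CPM (log2 -1.26 ± 0.31, edgeR adjusted p = 0.0981). The ranges of the genotypes overlapped for all 3.

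**Figure D2:**
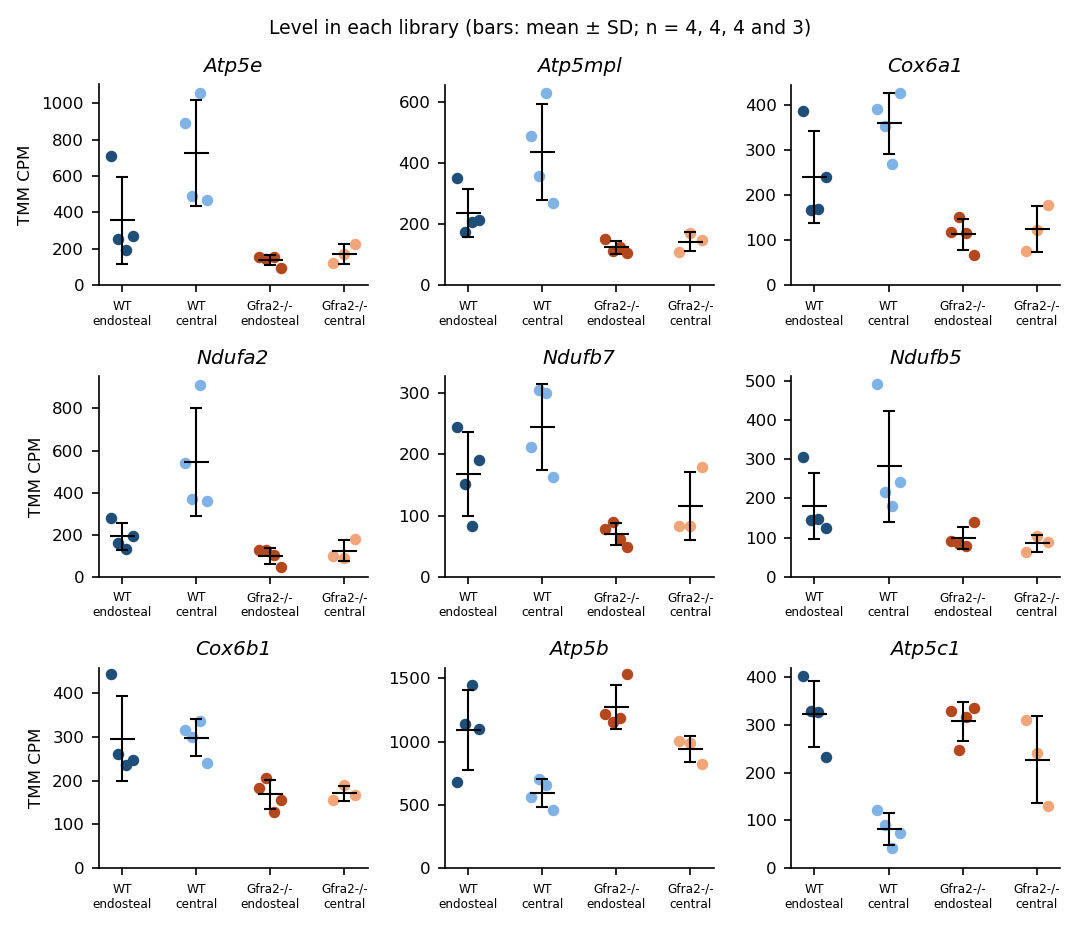
CPM of 9 members in each library (points) by group, with the mean ± SD (n = 4, 4, 4 and 3): the 7 members that fell in Gfra2-/- HSCs relative to other genes, and Atp5b and Atp5c1. With spike-in scaling the 7 members have values from -0.80 to -0.02 on the log2 scale and none is called.

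By role, the members' values were as follows, beside 5.38% of all genes lower at an unadjusted p under 0.05; differences between roles were not tested. In complex I, 11 of 29 accessory subunits were lower at an unadjusted p under 0.05 and 26 had negative values (median -0.50), while none of the 7 catalytic core subunits was (median -0.18; among them Ndufv1 0.89 ± 0.52, Ndufv2 0.45 ± 0.31, Ndufs3 1.25 ± 0.81, Ndufs1 -0.25 ± 0.31, Ndufs8 -0.31 ± 0.31 and Ndufs7 -0.44 ± 0.23). Among the assembly factors 1 of 8, Ndufaf8, was lower (-1.20 ± 0.36). Ndufa4 had a value of -0.57 ± 0.23.

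In complex III the catalytic Cyc1 and the Rieske iron-sulphur protein Uqcrfs1 had positive values of 0.42 ± 0.55 and 0.16 ± 0.31, whereas 4 of the 7 other members, the small subunits Uqcrq, Uqcrh, Uqcr11 and Uqcr10, had values from -1.11 to -0.76 at an unadjusted p under 0.05. The large core proteins Uqcrc1 and Uqcrc2 stood at 0.09 and 0.54.

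In complex IV all 11 common isoforms had negative values (median -0.60), 7 of them at an unadjusted p under 0.05, including Cox4i1 at -0.38 ± 0.16 and Cox8a at -0.60 ± 0.23. Of the tissue-restricted isoforms 3 could be tested, Cox7a1 through the few libraries named above, and Cox4i2 (-2.22 ± 1.08) and Cox6b2 (-0.53 ± 0.48) had edgeR p-values above 0.05.

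In complex V the F1 head held both of the members with positive values at an unadjusted p under 0.05, Atp5b (0.42 ± 0.17) and Atp5c1 (0.64 ± 0.30), beside the alpha subunit Atp5a1 at -0.18 ± 0.19, Atp5d at -0.40 ± 0.21 and Atp5e at -1.69. The edgeR adjusted p of Atp5b and Atp5c1 was 0.303 and 0.418. All 8 stator and membrane subunits had negative values (median -0.57, 3 at an unadjusted p under 0.05), and so did the 3 c-ring genes, of which none passed that threshold (Atp5g3 -0.57 ± 0.27). These directions by role are relative to other genes, since with spike-in factors 37 instead of 70 of the 85 members had negative values.

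The genotype comparison was also made within each compartment. In central HSCs no member of 83 passed the FDR in edgeR (0.051% of genes called), while DESeq2 called 5 lower, namely Atp5e, Ndufa2, Atp5mpl, Ndufb5 and Cox6a1 (3.44% of genes called). At an unadjusted p under 0.05, 12 members were lower (14.5%, with 4.14% of all genes) and 3 higher (3.61%, with 4.6% of all genes), and 16 lay below WT without overlap (19.3%, with 4.44% of all genes). The members' median was -0.49 and that of all genes 0.03; with spike-in factors the medians were 1.39 and 1.75, and 1 member instead of 62 had a negative value. The 12 lower members became 0 with spike-in factors, 20 with length offsets, 21 with DESeq2, 6 without Gfra2-/- central library A and 8 without Gfra2-/- central library B, and the 3 higher ones became 0 without Gfra2-/- central library A, 5 without WT central library A and 6 with the class of spike-in share (under or at least 0.5%) as a term.

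Atp5e (log2 -2.10 ± 0.39), Ndufa2 (-2.16 ± 0.44) and Atp5mpl (-1.63 ± 0.38) had the smallest p among the lower members in central HSCs, with edgeR adjusted p of 0.215, 0.224 and 0.292. The 3 higher ones were Atp5c1 (1.42 ± 0.48), Ndufs3 (3.37 ± 1.23) and Atp5b (0.63 ± 0.24). This comparison and that of the WT compartments share the WT central libraries. Atp5b stood at 461 to 704 CPM in WT central and 824 to 1007 CPM in Gfra2-/- central libraries.

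In endosteal HSCs no member of 84 and no gene passed the FDR in edgeR (0% of genes called), and DESeq2 called Atp5j2 and Cox5a lower, 2 members (1.03% of genes called). At an unadjusted p under 0.05, 23 members were lower (27.4%, with 3.52% of all genes) and none was higher (3.18% of all genes), and 23 lay below WT without overlap (27.4%, with 3.55% of all genes). The members' median was -0.55 and that of all genes 0.03, and 71 members had negative values, 75 with spike-in factors. Without Gfra2-/- endosteal libraries B and D, 9 members were lower at an unadjusted p under 0.05 and the median was -0.47. That number was 1 with spike-in factors, 10 with offsets for transcript length, 10 with only the libraries of at least 0.5% spike-in reads and 14 with counts thinned to the smallest library.

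Atp5j2, the f subunit of the membrane sector, was at 184, 112, 130 and 135 CPM in WT and 50.6, 46.9, 80.4 and 43.7 CPM in Gfra2-/- endosteal libraries (log2 -1.33 ± 0.34, edgeR adjusted p = 0.601). Cox5a, on the matrix side of complex IV, was at 163, 144, 139 and 173 against 98.6, 79.4, 64.3 and 46.1 CPM (log2 -1.10 ± 0.31, edgeR adjusted p = 0.645). Both were without overlap, as was Uqcr11 (log2 -1.26 ± 0.37, edgeR adjusted p = 0.667). The members with the smallest p on the other side were Ndufv1, the flavin subunit of complex I, at 0.86, the assembly factor Ndufaf1 at 1.14 and the accessory subunit Ndufa10 at 0.56, none at an unadjusted p under 0.05.

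**Figure D3:**
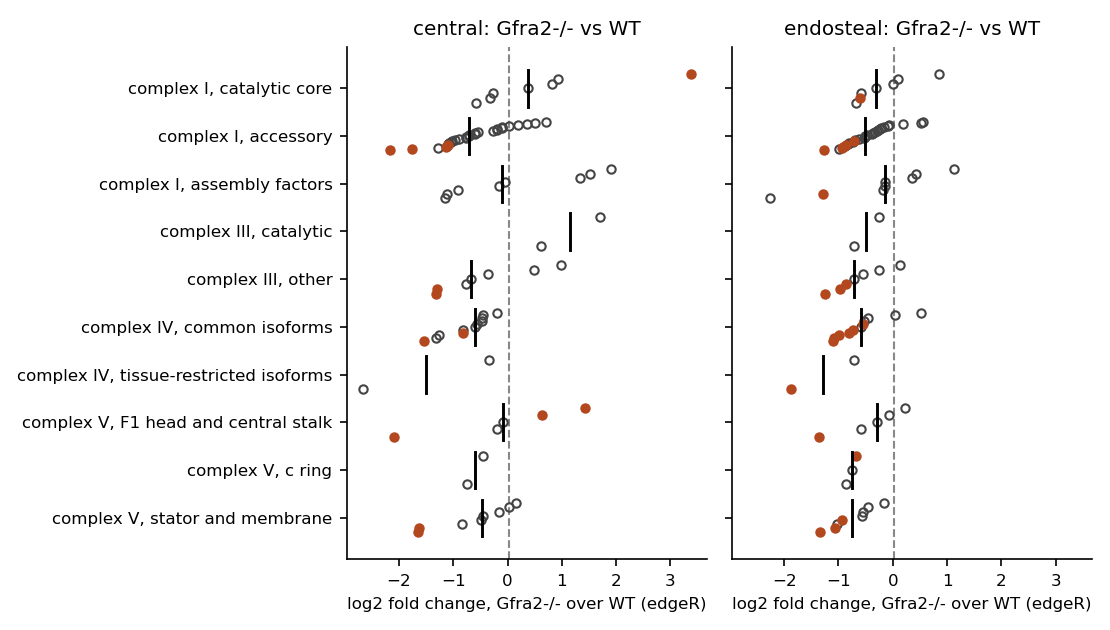
Log2 fold change (Gfra2-/- over WT, TMM scaling) of each tested member by role, in central HSCs on the left and endosteal HSCs on the right; filled points have an unadjusted edgeR p under 0.05, vertical bars are role medians and the dashed lines are the medians of all tested genes, 0.03 in both. All 11 common complex IV isoforms lie below 0 in central and 9 of 11 in endosteal HSCs; with spike-in scaling only 1 of 83 members lies below 0 in central HSCs, against 75 of 84 in endosteal ones.

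The central and the endosteal genotype comparisons share no library. Of 83 members tested in both, 12 were lower at an unadjusted p under 0.05 in central and 23 in endosteal HSCs, and 8 were lower in both, which is 66.7% of the former and 34.8% of the latter. They were Atp5e, Atp5mpl, Cox6a1, Cox6b1, Ndufa2, Ndufb5, Ndufb7 and Uqcrq, a small ubiquinone-binding subunit of complex III. Of 11405 genes tested in both, 466 and 440 were lower and 116 were lower in both, 24.9% and 26.4% of each list. The shares of members and of all genes start from unlike bases, since in endosteal HSCs 27.4% and 3.52% of those tested were lower. Values were negative in both compartments for 56 of the 83 members (67.5%) and for 28.0% of all genes.

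Split by the share of spike-in reads, the members' median minus that of all genes, on log2(CPM + 1), was -0.95 in central HSCs among libraries with at least 0.5% spike-in reads (2 against 3) and -0.22 for the 1 pair under it. In endosteal HSCs it was -0.51 (3 against 3) and -0.88 (1 against 1). Between compartments it was -0.14 and -0.07 in WT and 0.11 and -0.50 in Gfra2-/- HSCs, so that the sign differed between these classes of libraries for the Gfra2-/- compartment comparison alone. With this class as a term of the edgeR design, added after seeing the data, the members called lower between genotypes were 4 instead of 7, and no member was called in either compartment.

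The members were also summed in each library as a share of all gene reads. Summed over the 90 members it was 1.73%, 1.28%, 1.29% and 1.36% in WT endosteal, 1.47%, 1.31%, 1.55% and 1.19% in WT central, 1.09%, 1.07%, 1.06% and 0.986% in Gfra2-/- endosteal, and 0.913%, 1.09% and 1.12% in Gfra2-/- central libraries. Every Gfra2-/- library lay below every WT library, and the compartments overlapped. Complex I subunits took 0.379% to 0.558% in WT and 0.263% to 0.364% in Gfra2-/- HSCs, and complex IV genes 0.222% to 0.306% and 0.126% to 0.202%, again without overlap. The shares of complex V, complex III and the complex I assembly factors overlapped between genotypes.

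**Figure D4:**
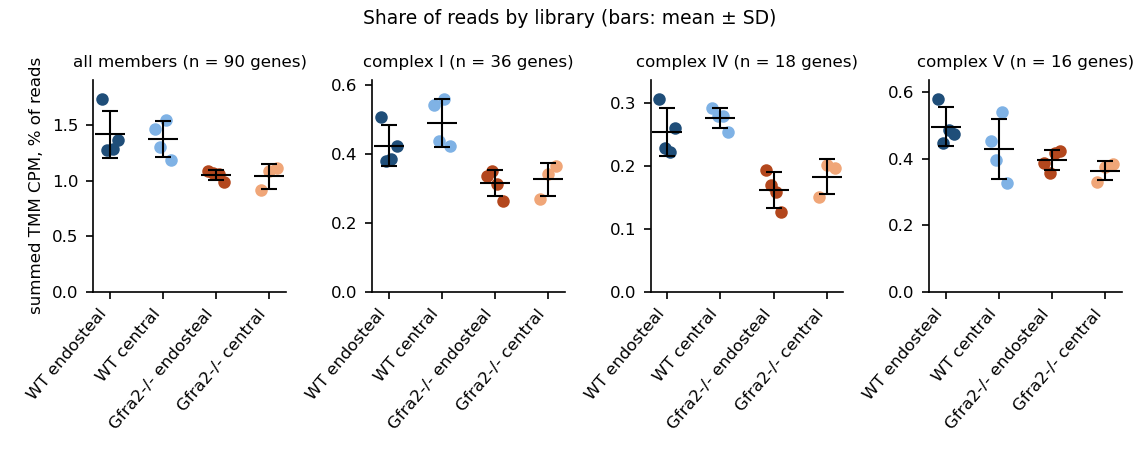
Summed CPM of all 90 members, the 36 complex I subunits, the 18 complex IV genes and the 16 complex V subunits as a percentage of reads in each library (points), by group, with the mean ± SD (n = 4, 4, 4 and 3). For all members the WT libraries run from 1.19% to 1.73% and the Gfra2-/- libraries from 0.913% to 1.12%; these are shares of reads, not amounts per spike-in.

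Transcript length moved with these values. The members are short, with a median principal transcript of 823.5 nt where protein-coding genes with reads have 2916 nt. In the genotype comparison the members' median log2 fold change was -0.90 at up to 600 nt (n = 19), -0.71 at 600 to 800 nt (n = 21), -0.44 at 800 to 1000 nt (n = 9), -0.33 at 1000 to 1500 nt (n = 16), 0.21 at 1500 to 2000 nt (n = 13) and -0.18 over 2000 nt (n = 7). Other protein-coding genes in the same length classes had medians of -0.46, -0.33, -0.17, 0.03, 0.20 and 0.11. Short genes in general were thus lower in Gfra2-/- HSCs relative to long ones. The members of up to 1500 nt lay below other genes of their length class in each class, as did those over 2000 nt (n = 7). Those of 1500 to 2000 nt did not.

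Non-member genes of up to 800 nt summed to 2.43% to 3.83% of reads in WT endosteal, 3.36% to 4.33% in WT central, 1.76% to 2.12% in Gfra2-/- endosteal and 1.95% to 2.78% in Gfra2-/- central libraries. With per-library offsets for transcript length, an alternative chosen after seeing the data, 5 members were called lower, namely Atp5e, Atp5mpl, Cox6a1, Ndufa2 and Uqcrq, 29 were lower at an unadjusted p under 0.05 and none was higher. The members' median minus that of all genes was then -0.46. Catalytic and core subunits tend to have the longer transcripts (median 1623 nt for the complex I core and 763 nt for its accessory subunits), so role and length cannot be told apart here.

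**Figure D5:**
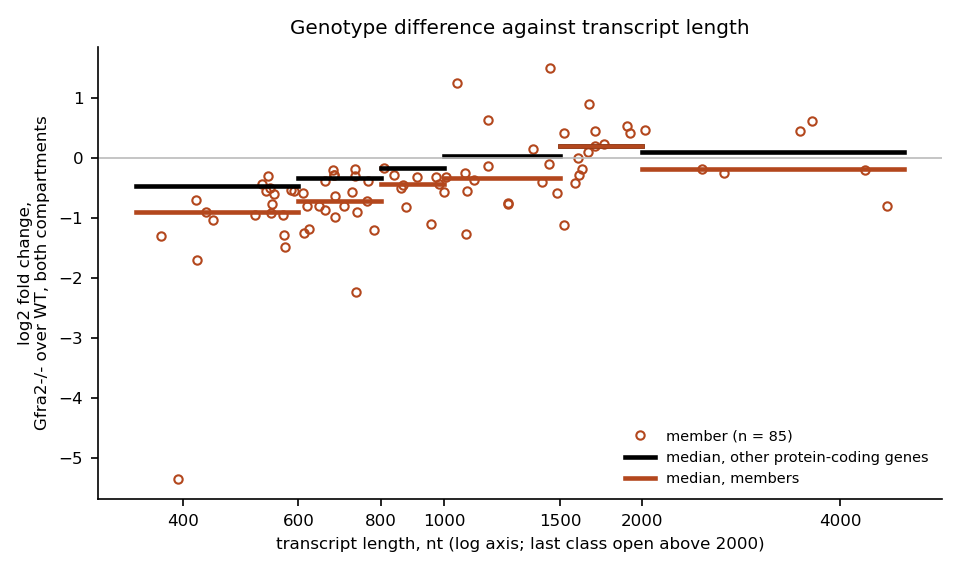
Log2 fold change (Gfra2-/- against WT, both compartments, TMM scaling) against the length of the principal transcript in nt (log axis), members as open points, with the medians of members (orange lines) and of other protein-coding genes (black lines) in 6 length classes, the last open above 2000 nt. Cox7a1, at -5.33, lies far below the rest. The medians of members and others are -0.90 and -0.46 in the shortest class, meet at 1500 to 2000 nt and are -0.18 and 0.11 over 2000 nt. With spike-in scaling the median of all genes is 0.74 and 37 of 85 members have negative values.

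Length also went with the compartment values in WT HSCs. Members of up to 600 nt had a median of -0.56 and other genes of that length -0.43, and members of 1500 to 2000 nt had 0.67 and other genes 0.23.

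Of the other genes of the pathway, complex II, whose 4 subunits are all nuclear, had no member called between genotypes, and Sdhd, a membrane anchor, had the smallest p (0.69 ± 0.28, edgeR adjusted p = 0.303). The mobile carriers and the lists of assembly factors for complexes I, III, IV and V had none called in that comparison. Of the 13 mitochondrially encoded subunits, 4 fell and 1 rose: mt-Nd2 (-1.72), mt-Nd6 (-1.62), mt-Nd4 (-0.87) and mt-Nd1 (-0.64) fell and mt-Co1 rose (0.96), with edgeR adjusted p from 0.0160 to 0.0883. Reads of mt-Nd6 cannot be told from those of the opposite strand because counting was unstranded. The summed mitochondrially encoded share overlapped between genotypes, at 2.45% to 3.33% in WT and 1.53% to 2.82% in Gfra2-/- HSCs. Within it, mt-Co2, mt-Co3, mt-Atp6, mt-Nd3, mt-Nd4l and mt-Atp8 stayed at or below 83.1 CPM in every library. The sum thus rests almost wholly on the other mitochondrially encoded genes, and the cause of these low counts was not tested.

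Among 12 transcriptional regulators of respiratory genes, 1 passed the FDR in edgeR between genotypes (0.804% of genes called). For this call, too, only the TMM fit over all 15 libraries is given. Yy1, a zinc-finger factor that binds many promoters, fell by 1.50 on the log2 scale (SE 0.37, edgeR adjusted p = 0.0981), from 37.9 to 183 CPM in WT to 19.7 to 81.5 CPM in Gfra2-/- libraries. Its ranges overlapped. Nrf1, a main activator of respiratory genes, had a value of 0.03, and Gabpb1, a subunit of the ETS factor GABP, one of 0.96 (edgeR adjusted p = 0.316).

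The promoters of the members were searched for the motifs of such factors in RefSeq windows of 250 bases before to 50 after the start (GRCm38.p6), on both strands. A window was found for 71 members and not for the other 19. The NRF1 core GCGCATGC was in the windows of 11 members (15.5%) and in 2.71% of all 32851 windows, the YY1 motif AAGATGGC in 10 members (14.1%) and 2.75% of all, and the ETS motif CCGGAAGT in 5 members (7.04%) and 3.89% of all. The GC box GGGCGG was in 31 members (43.7%) and 35.7% of all windows, and TATAAA in 7 members (9.86%) and 13.6% of all.

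Of the 24 members with a window that were lower between genotypes at an unadjusted p under 0.05, 4 held the NRF1 core, 5 the YY1 motif and 3 the ETS motif. Among all 71 members with a window these numbers were 11 (15.5%), 10 (14.1%) and 5 (7.04%). Of the 5 members with a window that edgeR called lower at the FDR, 1 held the NRF1 core, 0 the YY1 motif and 0 the ETS motif. The 200 bases before the start of Atp5e (chr2:174464102-174464301, minus strand) and Cox6a1 (chr5:115348959-115349158, minus strand) are shown because they were among the members that fell and hold matches, which are in capitals. In Atp5e these are GC boxes, in Cox6a1 overlapping copies of the NRF1 core and GC boxes, on either strand.
Atp5e: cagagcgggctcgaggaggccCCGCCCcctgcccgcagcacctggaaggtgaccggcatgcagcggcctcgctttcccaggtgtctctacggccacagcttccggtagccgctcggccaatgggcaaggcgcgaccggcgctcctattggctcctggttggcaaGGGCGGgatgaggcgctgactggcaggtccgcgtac
Cox6a1: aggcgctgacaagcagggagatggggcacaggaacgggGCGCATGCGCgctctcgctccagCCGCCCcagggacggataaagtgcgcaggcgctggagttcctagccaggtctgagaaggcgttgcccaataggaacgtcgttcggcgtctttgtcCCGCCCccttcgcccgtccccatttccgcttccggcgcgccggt

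The YY1 matches are shown because Yy1 itself fell. For 7 of the 10 members a stretch of 28 bases around the motif, in capitals, lies whole in the window, and in 6 of them the motif lies after the start, while in Atp5j it begins 88 bases before it.
Atp5j2: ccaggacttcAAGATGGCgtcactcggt
Ndufa3: cgccaagaacAAGATGGCcgggagtaag
Ndufaf8: ggcagggcccAAGATGGCggcgccctcg
Ndufc1: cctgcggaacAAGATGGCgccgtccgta
Ndufs7: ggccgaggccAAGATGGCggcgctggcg
Ndufa9: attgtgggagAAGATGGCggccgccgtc
Atp5j: aagtgtaggaAAGATGGCggagtcttag

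The log2 fold changes between genotypes of these 7 were -1.10 for Atp5j2, -0.95 for Ndufa3, -1.20 for Ndufaf8, -0.77 for Ndufc1, -0.44 for Ndufs7, -0.10 for Ndufa9 and -0.16 for Atp5j. The first 4 had an unadjusted edgeR p under 0.05 and the others did not. A match describes letters in the sequence and not binding.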

How the data were processed

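RNA from pools of 30 sorted cells was amplified with Smart-seq2, which primes on poly(A) and uses no molecular identifiers. Per the labels and methods, single-end 50-base reads were aligned by the authors with GSNAP to mm10, and HTSeq 0.5.3p3 counted uniquely mapped reads per gene without strand; the deposited table holds these raw counts. Its columns were tied to groups through the sample sheet of the study and carry no replicate numbers; 1 column matched no labelled sample and was not used. Spike-in RNAs (92) and 5 summary lines were left out of library sizes. Here genes were filtered with filterByExpr, scaled by TMM and tested by the edgeR 4.0.16 quasi-likelihood test (R 4.3.3) over all genes with Benjamini-Hochberg adjustment at a 10% FDR, each pair of groups alone, and genotype, compartment and their interaction over all 15 libraries. A DESeq2 1.42.0 test at the same FDR, other size factors, filters, depths and library choices were alternatives, with length and GC offsets and a term for the class of spike-in share (under or at least 0.5%) added after seeing the data. The scripts were tested on simulated data.

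The members, roles and lists were chosen with earlier results of these data known. The members named are the 3 with the smallest p in each direction of each comparison, the catalytic subunits, the isoform families, and in each complex the 3 highest and the lowest of those read in every library by level per length; others were named after their values were seen. Lengths and overlaps are from GENCODE M21 (GRCm38.p6) and promoter windows from RefSeq. Precision differs with depth: the limit set by 3 counts was 3.63 CPM in the shallowest and 0.162 CPM in the deepest library, and covers counting error only.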

Additional observations from a re-analysis of the deposited data

Results flagged for a closer look

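The values here lay far from the other libraries of their group of 4, by the gap to the nearest library over the whole range (Dixon's test at 95%). Of 93 groups tested, 10 had such a value, and chance gives about 1 in 20. In WT endosteal library A, complex III genes summed to 0.270% of reads where the other 3 libraries had 0.132% to 0.147%. The same library held 398 CPM of Cyc1 (the others 93.8 to 128), 712 of Atp5e (193 to 271), 306 of Ndufb5 (124 to 146) and 442 of Cox6b1 (236 to 260). In WT central library D, complex III genes summed to 0.0995% (the others 0.130% to 0.135%), complex I assembly factors to 0.0514% (0.0193% to 0.0238%), and the assembly factor Ndufaf1 stood at 22.9 CPM (0 to 1.34). Cox5a was at 82.2 CPM in WT central library A (the others 138 to 147), and Atp5b at 1531 CPM in Gfra2-/- endosteal library D (the others 1153 to 1214), 1 of the libraries in which Gfra2 was read.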

How the results depend on the processing

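No paired analysis was possible because no replicate number is given for any column of counts. The cause of each difference below was not tested. Called members are given as in the report, and medians are those of the members minus all genes. Between genotypes, 7 members were called lower; this became 0 with spike-in size factors, with only libraries of at least 0.5% spike-in reads, and without Gfra2-/- endosteal libraries B and D, 2 at an FDR of 0.05, 3 with the study's quality cut-offs, 4 without a filter or with the class of spike-in share (under or at least 0.5%) as a term, and 20 with DESeq2. Leaving out 1 library gave 0 (Gfra2-/- central A) to 10 (WT endosteal C) calls, with 1 without WT endosteal A or Gfra2-/- central B, 3 without WT endosteal D, WT central A, B or C, or Gfra2-/- central C, and 4 without Gfra2-/- endosteal B, C or D. The median stayed between -0.65 and -0.41 over all alternatives (main -0.56). In central HSCs 0 calls became 5 lower with DESeq2, 3 without a filter, 2 with at least 10 counts in every library and 1 with thinned counts; the median of -0.52 became -0.70 without a filter and -0.72 with at least 0.5% spike-in, and leaving out 1 library moved it from -0.70 (WT central D) to -0.34 (Gfra2-/- central A). In endosteal HSCs DESeq2 called 2 lower, and the median of -0.58 became -0.36 with length and GC offsets. Between WT compartments DESeq2 called 2 higher and 1 lower, and 1 was higher without a filter, with at least 10 counts and with all groups in 1 fit; the median of -0.03 became -0.23 without a filter and -0.24 with length and GC offsets. For Gfra2-/- compartments the median of -0.15 became 0.045 with at least 0.5% spike-in and 0.030 without the 2 libraries. Over both genotypes DESeq2 called 2 higher and 1 lower, 1 was higher with at least 10 counts, and leaving out 1 library gave 0 to 1 (without Gfra2-/- central A). For the interaction DESeq2 called 1 lower, and the median of -0.06 became 0.16 with at least 0.5% spike-in, 0.12 without the 2 libraries, 0.12 with length and GC offsets, and -0.22 to 0.11 with 1 library left out (0.11 without WT central D).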
